A study of Mus musculus with 2 samples.

Results

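The troponin genes encode the calcium switch of striated muscle. All 8 mouse members, Tnnt1, Tnnt2, Tnnt3, Tnni1, Tnni2, Tnni3, Tnnc1 and Tnnc2, were taken by symbol from the 55536 annotated genes, together with their 85 annotated transcripts. They were read in total RNA from the gastrocnemius, the large calf muscle, of female F1 mice of the B6Cast cross (strain B6CASTF1/J), which carry a C57BL/6J and a CAST/EiJ genome. The labels name no treatment and describe 1 group, with an age of 18 to 20 months, although the field for age itself reads as not collected. The group has 2 biological replicates from separately labelled tissue samples, each made from 300 ng of RNA with ERCC spike-ins, synthetic RNAs added in known amounts. The donor identifier is the same for both libraries, so whether the replicates are separate animals rests on the sample labels. A single group gives nothing to compare or test between conditions. The design allows the levels of the troponins, the make-up of each subunit and the spread between the replicates to be described.

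A troponin complex has 3 subunits and sits at intervals along the thin filament. Troponin T anchors the complex to tropomyosin, troponin I inhibits the interaction of actin with myosin, and troponin C binds calcium and releases that inhibition. Each subunit has a fast skeletal gene (Tnnt3, Tnni2, Tnnc2) and a slow skeletal gene (Tnnt1, Tnni1, Tnnc1). Tnnt2 and Tnni3 are the cardiac forms of T and I, while the heart shares Tnnc1 with slow fibres. The troponin T genes are in addition spliced into many forms, which differ near the amino end and, in Tnnt3, by a choice between a pair of exons near the carboxyl end.

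The coding exons measured in the 6 members with at least 500 counts were compared between the replicates. That pair of Tnnt3 exons carried the largest difference that both quantification tools gave in the same direction, so its sequences are shown first. Both exons are coding, 41 bases long and lie on the plus strand of chromosome 7 in mm10. The upstream exon covers chr7:142513665-142513705 and the downstream exon chr7:142514326-142514366, with 620 bases between them. Of the annotated transcripts 7 hold the upstream exon, 14 hold the downstream exon and none holds both. Capitals mark the positions at which the 2 exons differ when they are laid side by side without gaps. They shared 18 of 41 positions (43.9%).
Tnnt3 upstream exon: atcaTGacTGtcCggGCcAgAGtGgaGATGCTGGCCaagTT
Tnnt3 downstream exon: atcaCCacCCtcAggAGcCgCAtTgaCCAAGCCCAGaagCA

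A further 2 coding exons near the amino end are shown because the tools differed widely on their use. A 39-base exon of Tnnt3 lies at chr7:142507750-142507788 on the plus strand, and a 33-base exon of Tnnt1 at chr7:4513581-4513613 on the minus strand. Both are in frame, since their lengths are multiples of 3. Their GC content was 66.7% and 78.8%. No base is capitalised, because no part of them was compared.
Tnnt3 exon of 39 bases: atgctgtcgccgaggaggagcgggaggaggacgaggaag
Tnnt1 exon of 33 bases: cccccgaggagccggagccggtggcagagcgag

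A promoter window of each of the 3 slow genes is shown because these genes differed together between the replicates. RefSeq promoter entries of build GRCm38.p6, the assembly that mm10 names, were found for 6 of the 8 members, in 8 windows; Tnnt3 and Tnni2 had none. Each stretch holds the 250 bases before the annotated start, read in the direction of transcription. The windows were searched on both strands for the E-box CANNTG, for CATTCC (the MCAT core), for TATAAA and for the MEF2 motif. Capitals mark the matches, and no matches overlapped in these 3 stretches. The Tnnt1 window is chr7:4515976-4516225 on the minus strand, that of Tnni1 chr1:135799171-135799420 on the plus strand and that of Tnnc1 chr14:31208062-31208311 on the plus strand. The Tnni1 window ends at the start of Tnni1-203 and Tnni1-206, which took at most 0.975% of Tnni1 each by RSEM and 7.74% by kallisto. Tnni1-207, the leading form by RSEM, starts 19 bases before that point, and Tnni1-202, the leading form by kallisto, starts 16356 bases before it. The Tnnt1 window ends at the start of Tnnt1-201 and Tnnt1-213, both at or near 0% by kallisto. Tnnt1-206, the leading form by kallisto, starts 16 bases after that point. Tnnt1-204 and Tnnt1-210 start 1401 and 1360 bases after it.
Tnnt1 promoter: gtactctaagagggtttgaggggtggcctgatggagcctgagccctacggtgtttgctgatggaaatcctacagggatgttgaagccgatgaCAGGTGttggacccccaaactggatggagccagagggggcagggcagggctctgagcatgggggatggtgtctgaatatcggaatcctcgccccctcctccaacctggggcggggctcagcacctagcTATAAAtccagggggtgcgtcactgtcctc
Tnni1 promoter: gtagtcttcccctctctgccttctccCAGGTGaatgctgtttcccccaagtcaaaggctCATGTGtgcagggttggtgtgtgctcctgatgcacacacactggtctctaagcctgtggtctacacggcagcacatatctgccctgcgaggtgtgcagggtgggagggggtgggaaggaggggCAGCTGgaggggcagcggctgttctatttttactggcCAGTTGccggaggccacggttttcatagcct
Tnnc1 promoter: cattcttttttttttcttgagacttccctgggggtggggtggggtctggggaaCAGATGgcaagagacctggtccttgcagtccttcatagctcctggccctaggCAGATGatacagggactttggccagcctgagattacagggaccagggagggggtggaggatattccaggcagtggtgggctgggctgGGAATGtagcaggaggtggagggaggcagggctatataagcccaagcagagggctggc

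An E-box was found once in the Tnnt1 window, 4 times in the Tnni1 window printed and 2 times in that of Tnnc1. A second Tnni1 window, not printed, starts 90 bases further on. It overlaps the first and held 2, both of them sites already marked in the first. The E-box was present in all 8 troponin windows, which come from 6 genes, and in 66.2% of the 32851 promoter windows of the same length. TATAAA was matched in 1 of the 8, the Tnnt1 window, against 12.4% of all windows. CATTCC was matched in 2 of the 8 troponin windows, that of Tnnc1, where it lies on the opposite strand, and 1 of the cardiac Tnnt2, against 12.6% of all windows. The MEF2 motif, held by 2.92% of all windows, had no match in the troponin windows. These are matches of letters and say nothing about binding.

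Expected counts, the reads that RSEM assigned to each gene, summed to 38654555 in replicate 1 and 43722892 in replicate 2. The troponins took 2.05% and 1.83% of them. They took 3.64% and 3.26% of the TPM, a level per length that sums to the same total in every library. The counts of all 8 members were whole numbers in both libraries, whereas reads divided among genes would leave fractions. Skeletal muscle genes were read beside the tissue label: all 6 of Acta1, Ckm, Des, Ttn, Ryr1 and Mb were above 1 TPM in both libraries. Acta1 stood at 21825 and 23051 TPM. These are general markers of skeletal muscle, so they cannot tell the gastrocnemius from another muscle. Values below are given for replicate 1 and then for replicate 2, and ± is the SD over both (n = 2).

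Troponin T came almost wholly from its fast gene. Tnnt3 (ENSMUSG00000061723.18, chr7:142498836-142516009, plus strand) stood at 18345 TPM in replicate 1 and 15447 TPM in replicate 2, a mean of 16896 ± 2049 TPM. It ranked 3 among nuclear protein-coding genes in both libraries. Tnnt1, the slow form (ENSMUSG00000064179.13, chr7:4504570-4516382, minus strand), stood at 50.2 TPM in replicate 1 and 329 TPM in replicate 2, a mean of 190 ± 197 TPM. Its rank was 1133 in replicate 1 and 144 in replicate 2. Tnnt2, the cardiac form (ENSMUSG00000026414.13, chr1:135836354-135852260, plus strand), stood at 2.07 and 1.46 TPM, from 63 and 47 counts. The fast gene was thus high in both libraries, the slow gene was higher in replicate 2, and the cardiac gene was low in both.

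Troponin I had the same order. Tnni2, the fast inhibitory subunit (ENSMUSG00000031097.15, chr7:142441808-142444410, plus strand), stood at 9550 and 8434 TPM, a mean of 8992 ± 789 TPM, and ranked 9 and 10. Tnni1, the slow inhibitory subunit (ENSMUSG00000026418.16, chr1:135779434-135810989, plus strand), stood at 26.9 and 155 TPM, a mean of 90.9 ± 90.4 TPM. Tnni3, the cardiac inhibitory subunit (ENSMUSG00000035458.15, chr7:4518305-4524229, minus strand), had 1 count in each library, or 0.07 TPM in both. That is under the floor of 3 counts, which stood at 0.0776 CPM (counts scaled to library size) in replicate 1 and 0.0686 in replicate 2. Tnni3 was therefore not distinguishable from absence at this depth, and no fold is given for it.

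Troponin C has no separate cardiac gene. Tnnc2, the fast calcium-binding subunit (ENSMUSG00000017300.9, chr2:164777161-164779967, minus strand), stood at 8352 and 7930 TPM, a mean of 8141 ± 298 TPM, and ranked 10 and 11. Tnnc1, the calcium-binding subunit of slow fibres and heart (ENSMUSG00000091898.8, chr14:31208312-31211729, plus strand), stood at 50.8 and 309 TPM, a mean of 180 ± 182 TPM. For all 3 slow genes the SD was close to the mean, because the value of replicate 1 lay far under that of replicate 2. For the 3 fast genes the SD was a small part of the mean.

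**Figure D1:**
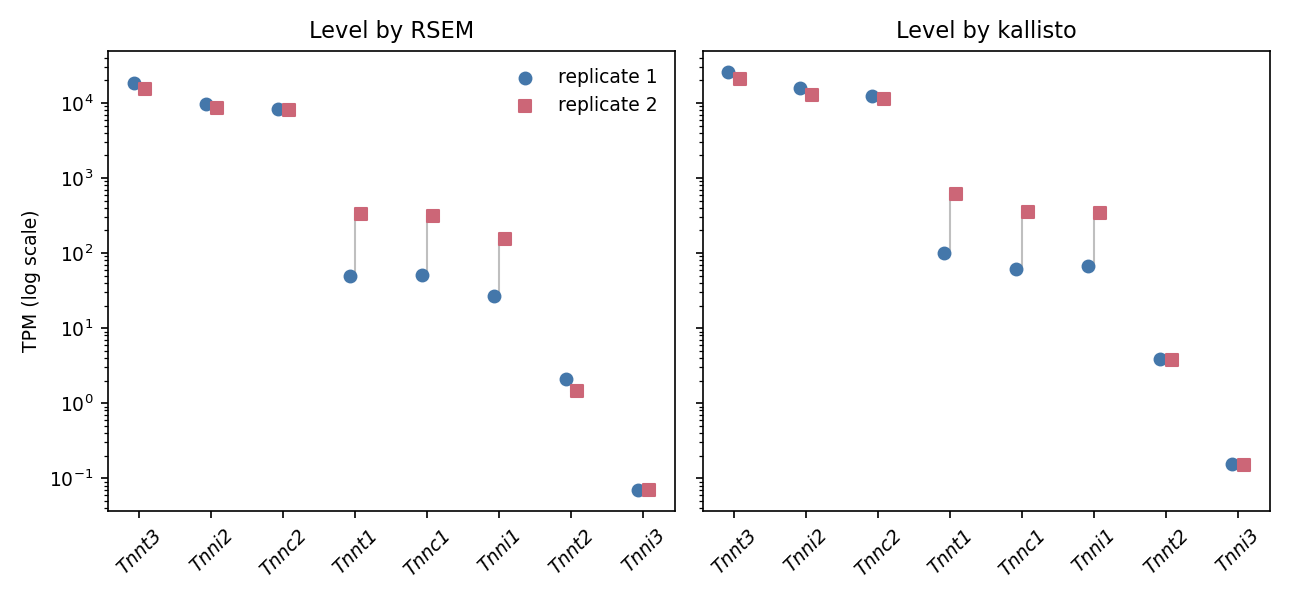
Level of each troponin gene in TPM on a log axis, by RSEM (left) and by kallisto (right), with circles for replicate 1 and squares for replicate 2 and a grey line joining them. The 3 fast genes lie close together near the top in both replicates, the 3 slow genes lie higher in replicate 2 by either tool, and Tnnt2 and Tnni3 lie at the bottom.

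By mean TPM the order was Tnnt3, Tnni2, Tnnc2, Tnnt1, Tnnc1, Tnni1, Tnnt2 and Tnni3. Tnni2 lay above Tnnc2 in both libraries, but its lower value (8434 TPM) and the higher value of Tnnc2 (8352 TPM) were close. Tnnt1 and Tnnc1 did not differ beyond their spread, with Tnnc1 the higher in replicate 1 and Tnnt1 in replicate 2. Tnni1 was the lowest of the slow genes in both libraries by RSEM. By kallisto, a second tool whose values were deposited for the same libraries, Tnnc1 (62.0 TPM) lay under Tnni1 (68.0 TPM) in replicate 1 and barely above it in replicate 2, at 353 and 347 TPM. Tnnt1 stood at 101 and 618 TPM by kallisto. The order of the slow genes among themselves therefore depended on the tool, while the gap between fast and slow genes held in both libraries by both tools.

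The summed level of troponin T was 18397 TPM in replicate 1 and 15778 TPM in replicate 2. Troponin I summed to 9577 and 8589 TPM, and troponin C to 8403 and 8239 TPM. The message for T was thus the most abundant, with a ratio of T to I of 1.92 and 1.84 (1.88 ± 0.0594). The ratio of C to I was 0.877 and 0.959. By kallisto the ratio of T to I was 1.67 and 1.64, and that of C to I was 0.797 and 0.883. These are ratios of messenger RNA, and no protein was measured.

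Among the fast genes alone the ratio of C to I was 0.875 and 0.940, and among the slow genes it was 1.88 and 1.99 by RSEM. By kallisto the slow ratio was 0.911 and 1.02 and the fast ratio 0.797 and 0.879. The excess of slow C over slow I seen with RSEM was therefore far smaller with kallisto. Of the 4 genes in these ratios Tnni1 differed most between the tools: its kallisto level was 68.0 TPM in replicate 1 where RSEM gave 26.9 TPM, and 347 TPM in replicate 2 where RSEM gave 155 TPM.

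The slow gene made up a small share of every subunit, and a larger one in replicate 2. Tnnt1 gave 0.273% of troponin T in replicate 1 and 2.09% in replicate 2. Tnni1 gave 0.281% and 1.80% of troponin I, and Tnnc1 gave 0.604% and 3.75% of troponin C. The slow share of troponin C was the highest of the 3 in both libraries by either tool, and kallisto put it at 0.496% and 3.05%. Kallisto gave 0.387% and 2.87% for Tnnt1 and 0.434% and 2.65% for Tnni1. By both tools the share of Tnni1 was the higher of these in replicate 1 and that of Tnnt1 in replicate 2. All slow troponins together took 0.352% of the troponin TPM in replicate 1 and 2.43% in replicate 2. In bulk tissue, fewer fibres of a type and less RNA per fibre cannot be told apart.

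**Figure D2:**
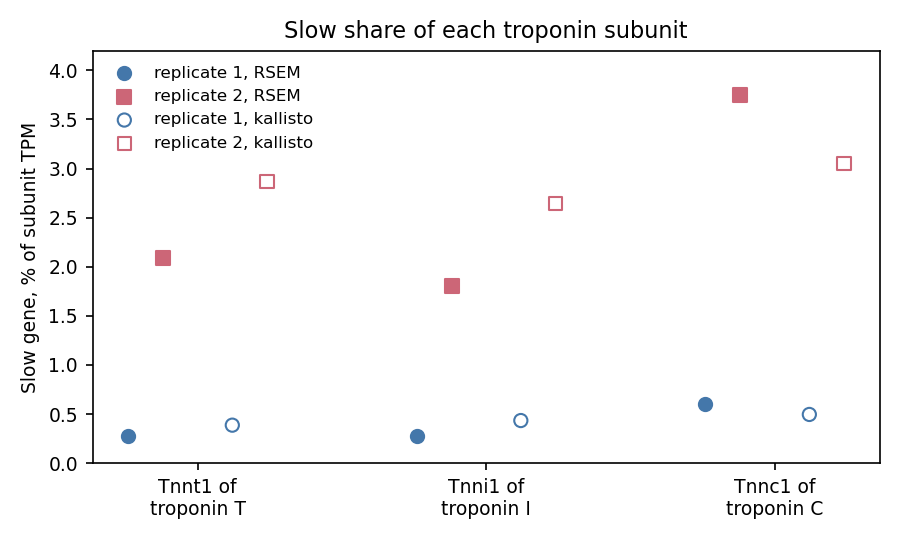
Percent of the summed TPM of each subunit that came from its slow gene, for replicate 1 (circles) and replicate 2 (squares), by RSEM (filled) and kallisto (open). Every share of replicate 1 lies at or under 0.604% and every share of replicate 2 at or above 1.80%.

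The replicates were compared by the log2 ratio of replicate 2 over replicate 1, scaled by edgeR's TMM factors, over the 12969 genes that had 50 or more counts in both libraries together. Of these, 350 (2.7%) were at least 2-fold higher in replicate 2 and 252 (1.94%) at least 2-fold lower. Scaled to the summed spike-ins the counts were 244 higher and 440 lower, and by the plain ratio of TPM 276 higher and 324 lower. Among the members, 7 passed the count minimum; 3 were at least 2-fold higher and 0 at least 2-fold lower. With 1 library against 1 there is no test, and the intervals below are exact conditional binomial intervals at 95% that cover counting error only, since reads are not independent molecules.

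The 3 that differed were the slow genes. Tnnt1 had 1290 counts in replicate 1 and 9600 in replicate 2, a log2 ratio of 2.86, or 7.29-fold (interval 6.88 to 7.73). Tnnc1 had 913 and 6283 counts, a log2 ratio of 2.75, or 6.74-fold (6.29 to 7.23). Tnni1 had 782 and 5093 counts, a log2 ratio of 2.67, or 6.38-fold (5.92 to 6.89). The slow forms of T, I and C were all higher in replicate 2, by similar folds. The intervals of Tnnc1 overlapped those of Tnnt1 and Tnni1, and those of Tnnt1 and Tnni1 met only at their ends.

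The fast genes differed far less. Tnnt3 had a log2 ratio of -0.10, Tnni2 of -0.03 and Tnnc2 of 0.07. The sign for Tnnc2 depended on the scaling, with -0.07 for the plain ratio of TPM and -0.15 when libraries were scaled to the summed spike-ins. Scaling to the spike-ins moved the median of all tested genes by -0.22 and the plain TPM ratio moved it by -0.15, and relative to those shifts the fast genes stayed near the middle. Tnnt2 had a log2 ratio of -0.44, or 0.731-fold, and its interval of 0.490 to 1.08 includes no change. All settings tried gave 3 members at least 2-fold higher and 0 lower.

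**Figure D3:**
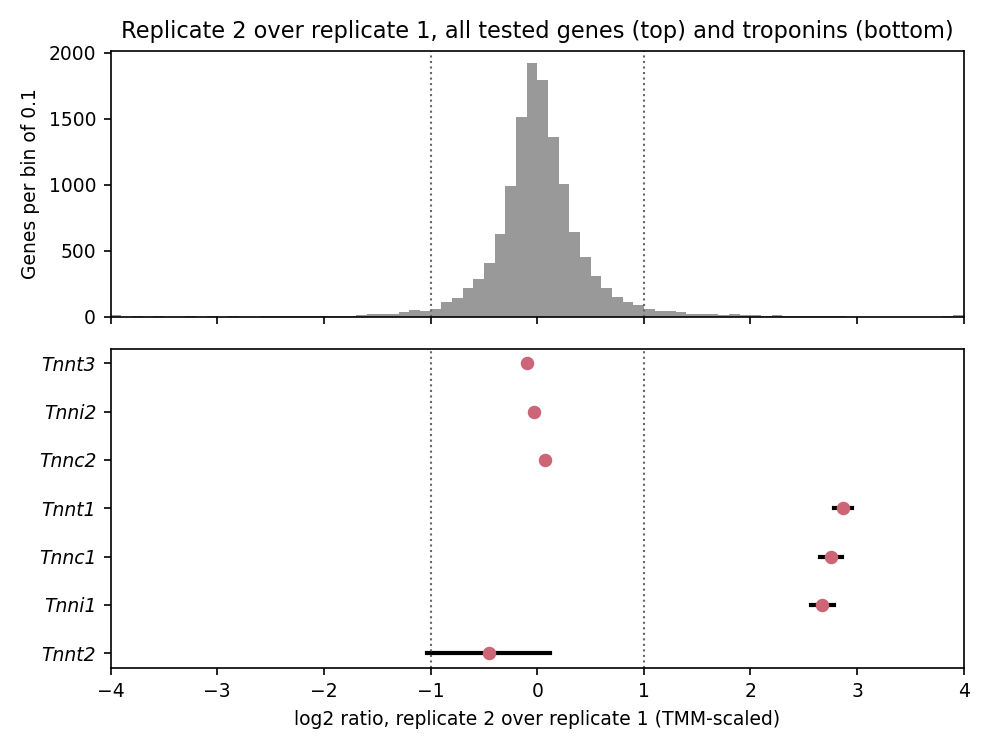
Log2 ratio of replicate 2 over replicate 1 for all 12969 tested genes (top, counts per bin of 0.1, with values past 4 in either direction placed in the end bins) and for the 7 tested troponins (bottom, points with 95% counting intervals); dotted lines mark 2-fold. Tnnt1, Tnnc1 and Tnni1 lie between 2.67 and 2.86, and the 3 fast genes lie within 0.10 of 0.

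Other slow fibre genes differed in the same direction as the slow troponins. Of 10 slow fibre genes outside the family, all 10 were at least 2-fold higher in replicate 2, against 2.7% of all tested genes. Their median log2 ratio was 2.16, where the median over all tested genes was near 0. Their summed TPM was 969 in replicate 1 and 3441 in replicate 2. This list and those below were chosen with earlier results of these data known, so the tally is not independent support for the slow troponins. Myh7, the slow myosin heavy chain, stood at 65.8 and 409 TPM (6.47-fold), Myl2, the slow regulatory light chain, at 94.2 and 481 TPM (5.78-fold), and Csrp3, a muscle LIM protein, at 17.3 and 88.7 TPM (5.74-fold). Atp2a2, the calcium pump of slow fibres, and Myl3, the slow essential light chain, stood 4.72-fold and 4.69-fold higher. Fhl1, Myoz2, Casq2, Ankrd2 and Mybpc1 stood 4.27-fold, 3.41-fold, 3.33-fold, 2.57-fold and 2.36-fold higher. By fold Tnnt1 and Tnnc1 thus stood above the highest gene of that list, Myh7, and Tnni1 just under it. The Myh7 value of 6.47 lies within the counting intervals of Tnnc1 (6.29 to 7.23) and Tnni1 (5.92 to 6.89). Those 2 genes are therefore not set apart from Myh7.

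Of 10 fast fibre genes outside the family, 1 was at least 2-fold higher and 0 lower, with a median log2 ratio of 0.09. The 1 was Myh1, the myosin heavy chain of IIX fibres, at 727 and 1709 TPM. Myh4, the heavy chain of IIB fibres, stood at 14510 and 11446 TPM, Mylpf, the fast regulatory light chain, at 12763 and 12584 TPM, and Atp2a1, the fast calcium pump, at 12948 and 11890 TPM. Their ratios lay near those of the fast troponins.

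The partners of troponin on the thin filament differed among themselves. Of 12 such genes 11 were tested; 3 were at least 2-fold higher in replicate 2 and 0 lower, with a median log2 ratio of 0.40. The 3 were Tpm3, the slow tropomyosin (52.2 and 274 TPM, 5.69-fold), Lmod2, which lengthens thin filaments (36.5 and 111 TPM, 3.38-fold), and Tpm2, the beta tropomyosin (1367 and 3846 TPM, 3.23-fold). The most abundant partners were Acta1, Tpm1 and Neb, which encode skeletal actin, alpha tropomyosin and nebulin. Their log2 ratios were 0.23, -0.09 and -0.06.

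Markers of other cells and states were read beside the members. Of 10 cardiac markers, 5 (Nppb, Myl7, Nkx2-5, Gata4 and Tbx20) had 0 counts in both libraries, and the list summed to 6.07 and 5.03 TPM. Nearly all of it was Hcn4, a pacemaker channel gene, at 5.95 and 4.91 TPM. Of the 10 markers the other 9 were at or near 0 in the libraries that held 2.07 and 1.46 TPM of Tnnt2. Myh6, the alpha myosin heavy chain of the heart, which is not in that list, stood at 15.5 and 82.8 TPM. Its part in the level of Tnnt2 was not tested. Of 8 markers of developing or regenerating fibres, 6 were tested; 0 were at least 2-fold higher and 1 was lower, Myl4, the embryonic light chain, at 7.74 and 2.45 TPM. The list summed to 175 and 138 TPM, mostly Myh8, the perinatal heavy chain, at 143 and 117 TPM.

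Of 6 fibroblast markers, 3 were at least 2-fold higher in replicate 2, namely Col3a1 (3.66-fold), Col1a1 (3.25-fold) and Col1a2 (2.57-fold), all fibrillar collagen chains, and the list summed to 412 and 436 TPM. The other 3 differed far less: Gsn stood at 238 and 230 TPM (1.07-fold), Dcn at 133 and 105 TPM (0.878-fold) and Pdgfra at 5.92 and 6.21 TPM (1.07-fold). Of 6 smooth muscle markers and 6 endothelial markers 0 were past 2-fold in either direction, with summed levels of 147 and 152 TPM and of 68.7 and 50.6 TPM. Mb, myoglobin, was the only 1 of the 6 skeletal muscle genes past 2-fold, at 873 and 2283 TPM. The part of these differences in the slow troponin ratios was not tested.

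By ratio alone, the protein-coding genes of at least 5 TPM nearest to the mean of the slow troponins (2.76) among 6622 candidates included Myh7 (2.69), Zfp385a (2.85), Gadd45g (2.64) and Myh6 (2.64). Nearest to the mean of the fast troponins (-0.02) among 33 genes of at least 1000 TPM were Aldoa, Actn3, Pygm, Tpt1 and Atp2a1, with log2 ratios from -0.05 to 0.03. Likeness here means a close ratio between 2 libraries and nothing more.

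The annotated transcripts were compared next, as the percent of the gene's TPM from each, by RSEM and by kallisto. The troponin C genes gave 1 form each. Tnnc2-201 took 99.98% and 99.99% of Tnnc2 by RSEM and 99.91% in both libraries by kallisto. Tnnc1-202 took 99.5% and 99.1% by RSEM and 99.6% and 99.1% by kallisto. No coding exon measured in either gene was used variably, taking as variable an inclusion between 5% and 95% in any library by either tool. For Tnnc2 the annotation fixes this at 100% whatever the reads, since every annotated transcript spanning a measured exon holds it. The same is true of the 31-base and 147-base exons of Tnnc1.

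For the other genes the tools named different transcripts. Of Tnni2, RSEM gave 97.8% and 97.9% to Tnni2-201, a protein-coding form. Kallisto gave Tnni2-201 2.11% and 2.04%, and placed 55.5% and 56.7% on Tnni2-203, annotated as a retained intron, and 42.2% and 41.2% on Tnni2-202. The protein-coding share of Tnni2 was thus 99.1% and 99.3% by RSEM and 44.3% and 43.2% by kallisto. Its 42-base coding exon was included at 99.6% and 99.5% by RSEM and at 3.65% and 3.47% by kallisto, a gap of 95.9 and 96.0 points between the tools. The 129-base version of a 90-base exon was included at 0.496% and 0.596% by RSEM and at 42.2% and 41.2% by kallisto. Within each tool the replicates were close to each other, so the gap was between tools and not between libraries. Which of them is nearer to the tissue cannot be read from these tables.

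Of Tnni1, RSEM gave 97.4% and 95.7% to Tnni1-207. Kallisto gave Tnni1-207 30.5% and 28.3%, Tnni1-202 46.1% and 42.6%, Tnni1-205 19.2% and 21.1%, and Tnni1-206 3.50% and 7.74%. Tnni1-202 is annotated with 509 bases against 1105 for Tnni1-207. By inclusion none of the 7 coding exons measured was variable. Noncoding and partly coding exons were not measured, nor were exons that no transcript with signal spans on both sides.

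Of Tnnt1, RSEM gave the most to Tnnt1-201 in replicate 1 (35.1%, against 31.6% in replicate 2) and to Tnnt1-203 in replicate 2 (34.9%, against 30.5% in replicate 1). Tnnt1-213 followed with 17.2% and 15.1% and Tnnt1-206 with 11.0% and 13.0%. Kallisto gave the most to Tnnt1-206, with 51.2% and 48.2%, then 21.8% and 19.3% to Tnnt1-204, 15.1% and 18.6% to Tnnt1-210 and 11.6% and 13.7% to Tnnt1-203. The make-up of Tnnt1 differed by a few points at most between the replicates in either tool, while its level differed 7.29-fold.

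**Figure D4:**
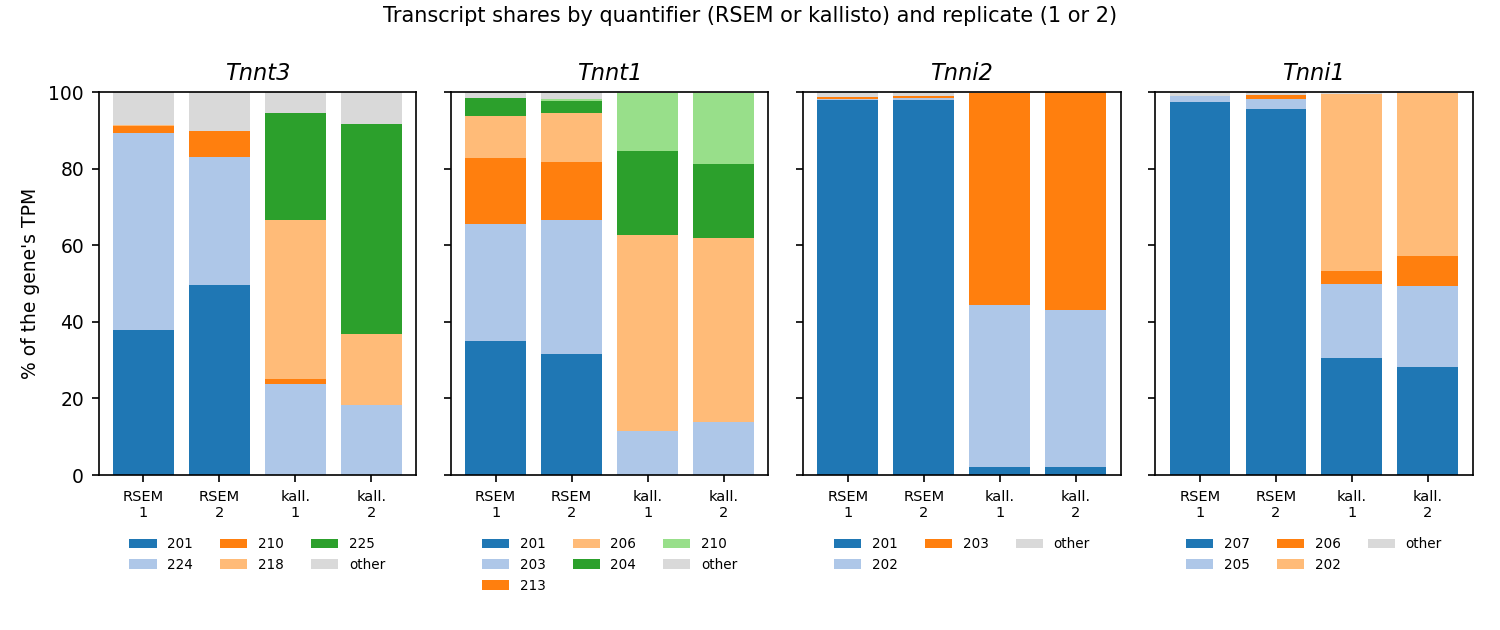
Percent of the TPM of Tnnt3, Tnnt1, Tnni2 and Tnni1 from each annotated transcript of at least 5% in any library by either tool, with the rest in grey; bars are RSEM for replicates 1 and 2 and then kallisto for replicates 1 and 2. The bars of a tool resemble each other between replicates except in Tnnt3, and the bars of the 2 tools differ in every gene shown.

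The exons of Tnnt1 were compared as inclusion, the percent of the TPM of the transcripts spanning an exon that comes from transcripts holding it. The 33-base exon printed above was included at 88.3% and 85.4% by RSEM and at 48.6% and 51.8% by kallisto. A later exon of Tnnt1 is annotated with 3 starts, each 3 bases from the next, and its 16-base version stood at 0% by both tools. Its 19-base version stood at 51.2% and 47.8% by RSEM and 73.2% and 67.6% by kallisto. Its 22-base version stood at 31.4% and 37.0% by RSEM and 26.8% and 32.4% by kallisto. The longer version was 5.66 points higher in replicate 2 by RSEM and 5.63 points higher by kallisto, while the share of the shorter version depended on the tool. An 11-base exon and the 72-base version of a later exon, both held by Tnnt1-213 alone, stood at 17.4% and 15.2% by RSEM and at or near 0% by kallisto.

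Among the 6 genes with at least 500 counts, Tnnt3 was the one whose forms differed most between the replicates. RSEM gave 51.4% to Tnnt3-224 and 38.0% to Tnnt3-201 in replicate 1, and 33.6% and 49.5% in replicate 2. Tnnt3-210 took 1.83% and 6.73%, the next after them in replicate 2 but not in replicate 1. Kallisto gave 41.6% to Tnnt3-218, 27.8% to Tnnt3-225 and 23.7% to Tnnt3-224 in replicate 1, and 18.5%, 54.9% and 18.2% in replicate 2. The leading form thus differed between the replicates in both tools, but the forms named were not the same. Tnnt3-224 and Tnnt3-218 hold the upstream exon of the pair printed above, and Tnnt3-201 and Tnnt3-225 the downstream one.

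Summed over transcripts, the tools came close on that pair. Of the TPM of Tnnt3 transcripts that span the pair, the upstream exon was held by 60.7% in replicate 1 and 41.4% in replicate 2 by RSEM, and by 70.6% and 42.6% by kallisto. The downstream exon was held by 39.1% and 58.6% by RSEM, and by 29.4% and 57.4% by kallisto. Use of the upstream exon was therefore 19.3 points lower in replicate 2 by RSEM and 28.0 points lower by kallisto. The ratio of upstream to downstream was 1.55 and 0.707 by RSEM and 2.40 and 0.743 by kallisto, so the favoured exon was the upstream one in replicate 1 and the downstream one in replicate 2.

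In TPM, forms with the upstream exon stood at 11039 in replicate 1 and 6335 in replicate 2 by RSEM, and forms with the downstream exon at 7117 and 8954. Both forms were abundant in both libraries, and they differed in opposite directions while Tnnt3 as a whole had a log2 ratio of -0.10. The depth behind Tnnt3 was 469459 and 448422 counts, but the reads on each exon were not analysed here, so the precision of the shares is not known beyond the spread of the replicates.

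The exons near the amino end of Tnnt3 were read with less certainty. An 18-base exon was included at 58.1% and 46.9% by RSEM and at 99.8% and 95.7% by kallisto. The next 15-base and 12-base exons were included at 86.5% or more in both libraries by both tools. A second 15-base exon was included at 6.26% and 15.3% by RSEM but at 71.4% and 75.7% by kallisto, and the 39-base exon printed above at 0.288% and 1.12% by RSEM but at 70.0% and 75.7% by kallisto. For the 18-base, second 15-base and 39-base exons the tools differed by up to 74.6 points, far more than the replicates did within either tool. For the first 15-base and the 12-base exon the direction depended on the tool. Replicate 2 minus replicate 1 was -5.40 and -6.71 points by RSEM and 4.73 and 4.71 points by kallisto. Over the 6 genes with at least 500 counts, 15 of the 67 coding exons measured were variable. An exon was measured only if it was wholly coding. Exons held by every annotated transcript spanning them are among the 67 but could not vary, whatever the reads. Of the 15, 5 differed by at most 15 points between the tools in both libraries. The difference between the replicates had the same sign in both tools for 10 of the 15. Those 10 include the 11-base exon of Tnnt1 and the 72-base and 64-base versions of a later one. Their kallisto differences were -7.05e-09, -7.05e-09 and 7.05e-09 points, too small to give a direction. The 2 exons of the Tnnt3 pair mirror each other, so they are not separate cases. In Tnnt1 the 11-base exon and the 72-base version had the same inclusion, and the 64-base version mirrored them. By RSEM they stood at 17.4%, 17.4% and 82.6% in replicate 1. The 19-base and 22-base versions in Tnnt1 are alternatives of the same exon, as are the 129-base and 90-base versions in Tnni2. The tallies of 15, 5 and 10 are therefore not counts of separate cases. The tally leaves out the 42-base exon of Tnni2, where the gap between the tools was wider, because one tool put it above 95% and the other under 5%.

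**Figure D5:**
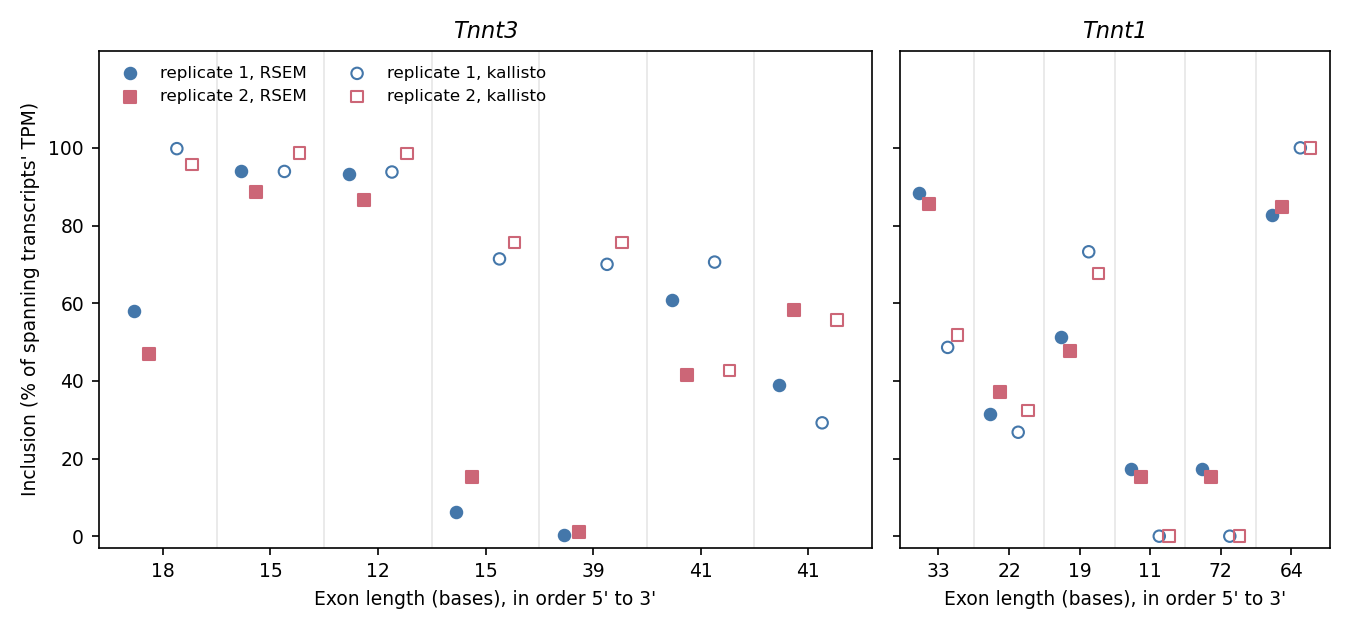
Inclusion of the variable coding exons of Tnnt3 (left) and Tnnt1 (right), in percent of the TPM of spanning transcripts, ordered 5′ to 3′ and named by length in bases, for replicate 1 (circles) and replicate 2 (squares) by RSEM (filled) and kallisto (open). At the 2 exons of 41 bases in Tnnt3 the tools lie close and the replicates apart, while at the 39-base exon the replicates lie close and the tools apart.

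The isoforms of the cardiac genes rested on few reads. Tnnt2 had 63 and 47 counts. By RSEM its TPM came from Tnnt2-207 (47.3% and 19.2%), from Tnnt2-202 and Tnnt2-206 (24.6% and 40.4% each) and, in replicate 1, from Tnnt2-208 (3.38%, or 9.52% of the counts). Kallisto gave most of it to Tnnt2-209 (49.9% and 31.3%), Tnnt2-201 (33.1% and 16.8%), Tnnt2-213 (14.2% and 0%) and Tnnt2-214 (0% and 50.9%). No form reached 5% by both tools, and no make-up is given for Tnnt2. The 1 count of Tnni3 fell on Tnni3-205 in replicate 1 and on Tnni3-207 in replicate 2.

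Of the 8 troponin genes 6 lie in pairs of a T gene and an I gene, and 2 of the 3 pairs join genes of different muscle types. Tnni1 and Tnnt2 lie 25.4 kb apart on chromosome 1, with Lad1 between them. Tnni2 and Tnnt3 lie 54.4 kb apart on chromosome 7, with Lsp1 between them. Tnnt1 and Tnni3 lie 1922 bases apart elsewhere on chromosome 7, with no gene between them. The closest pair differed in level, since Tnnt1 had 9600 counts in replicate 2, where Tnni3 had 1. In the Tnni1 and Tnnt2 pair the slow gene was 6.38-fold higher in replicate 2 and the cardiac gene was not, while both members of the fast pair were among the most abundant genes.

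Some members overlap genes on the opposite strand. Tnnt3 overlaps Prr33, annotated as a long intergenic RNA, at 96.5 and 97.3 TPM. Tnnc1 lies within Nisch, which stood at 27.5 and 22.9 TPM, and Tnnc2 overlaps Ube2c, a cell cycle gene, at 0.04 and 0.18 TPM. Nisch was close to level between the replicates in counts, at 3170 and 3178, while Tnnc1 was 6.74-fold higher in replicate 2. Tnni3 overlaps Dnaaf3 on the same strand, which had 3 counts and 0 counts. The library is labelled as stranded, but the strand setting of the counting is not given in the sources used here, so a small exchange of reads between such partners cannot be told apart from their own signal.

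Splicing regulators known in muscle were read because the Tnnt3 pair differed. Of 12 such genes 11 were tested, and 0 were at least 2-fold higher or lower, with a median log2 ratio of -0.18. The most abundant were Mbnl1 at 267 and 219 TPM, Mbnl2 at 145 and 132 TPM and Rbfox1 at 140 and 100 TPM. Their levels are of messenger RNA, and their part in the choice of the Tnnt3 exons was not tested.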

How the data were processed

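Total RNA-seq tables of 2 libraries of 1 group were used. The members, gene lists and measures were chosen with earlier results of these data known, and the exon inclusion measure was chosen after the transcript tables were seen. Deposited expected counts and TPM of genes and transcripts carry RSEM's column names, per the file headers, and estimated counts and TPM per transcript carry those of kallisto, per the file headers. Genome build mm10 and GENCODE M21 are named in the deposited notes; the aligner and the versions of RSEM and kallisto, not given in the sources used here, are left unnamed. FPKM values and percent columns were deposited by the authors and not used here; percents were computed from the TPM.

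Expected counts were rounded to whole numbers for log2 ratios from edgeR 4.0.16 (TMM, prior count 2) in R 4.3.3. Size factors of DESeq2 1.42.0 were an alternative. Kallisto values were summed per gene. Named were all 8 members, transcripts of at least 5% of the gene by either tool, the 3 most abundant members of each list with any past 2-fold, and the 5 genes nearest in ratio; some listed genes enter only the counts and sums of their list, and 1 gene that the rule names is not reported here. Shares and exon inclusion used GENCODE M21 models, and exon sequences its transcripts. The log2 ratios were tested on simulated counts and the inclusion measure on a small made-up gene. The other steps were not tested in this way. With 1 group no test or p-value was possible, and nothing shows whether the spread between the libraries is biological or technical.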

Additional observations from a re-analysis of the deposited data

How the results depend on the processing

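Of 286 alternatives over 48 results, 202 left the value within the spread of the replicates, the counting interval or 1.5 times the count, and 84 moved it further. The alternatives that leave out a library are among the 202 by construction. With 2 libraries the value of either one always lies within the SD of their mean, so these alternatives say nothing about stability. The SD of the slow genes and of their shares is about as large as the mean, so staying within it says little for them; the share of Tnnt1 was 0.273% or 2.09% with 1 library left out. Leaving out a library leaves the value of the other, so the mean of each slow gene rests on which library is kept: 50.2 or 329 TPM for Tnnt1, 50.8 or 309 for Tnnc1 and 26.9 or 155 for Tnni1. All scalings and filters gave 3 members at least 2-fold higher and 0 lower.

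By kallisto the mean TPM was 23496 for Tnnt3, 14184 for Tnni2, 11826 for Tnnc2, 360 for Tnnt1 (against 190 by RSEM), 207 for Tnni1, 3.797 for Tnnt2 and 0.153 for Tnni3, the sums of T, I and C were 23859, 14392 and 12034 TPM, and the ratios of T and C to I were 1.66 and 0.840. Rescaled to nuclear protein-coding genes, the mean TPM was 36575 for Tnnt3, 19470 for Tnni2, 17634 for Tnnc2, 414 for Tnnt1, 392 for Tnnc1, 198 for Tnni1, 3.82 for Tnnt2 and 0.152 for Tnni3. With posterior means, Tnnt2 stood at 2.45 TPM, Tnni3 at 0.590 TPM and the sum of C at 8144 TPM.

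With a count minimum of 10 in place of 50, 662 genes were at least 2-fold higher and 678 lower (49.4% of calls higher, against 58.1%). With a minimum of 500 they were 147 and 47 (75.8%), and with none 1090 and 1622 (40.2%). Spike-in scaling gave 244 higher and 440 lower (35.7%), and the plain TPM ratio 276 and 324 (46%). The cause of the differences between scalings was not tested.

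By kallisto the mean share was 0% for Tnnt1-201, 20.97% for Tnnt3-224, 29.4% for Tnni1-207, 2.08% for Tnni2-201 and 99.91% for Tnnc2-201. Posterior means gave 91.1% for Tnni1-207 and 98.8% for Tnnc1-202. By expected counts Tnni2-201 took 98.0% and Tnnc2-201 99.99%, and among protein-coding transcripts alone Tnni2-201 took 98.6% and Tnnc1-202 and Tnnc2-201 100%.

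Alternatives for the upstream exon were chosen after seeing the data. No paired analysis was possible because there is 1 group. Depth limits Tnni3 and Tnnt2. The spread between 2 libraries limits the slow genes, and the gap between the tools limits the levels of the fast genes and most transcript shares.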
